A study of Homo sapiens with 8 samples.

Results

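The genes described here are 9 genes of MHC class I antigen presentation, NLRC5, HLA-B, HLA-C, HLA-E, B2M, TAP1, TAP2, TAPBP and PSMB9, taken by gene symbol from the 26364 genes of the expression table. All 9 were among the 14151 genes tested. RNA-seq was done on MV4-11, a human acute myeloid leukemia (AML) cell line that carries FLT3-ITD and MLL-AF4. All 8 libraries are labelled as this line, with 2 libraries in each of 4 groups on day 4. The groups were DMSO vehicle (Ctrl), TCP at 5 μM (TCP), palbociclib at 0.5 μM (Palbo), and both molecules at these doses (Combo). The study's methods describe growing its AML lines together with HS-5, a human stromal cell line. Whether RNA of stromal cells entered these libraries was not settled here. TCP is tranylcypromine, an inhibitor of the histone demethylase LSD1, and palbociclib inhibits the cell cycle kinases CDK4 and CDK6. The question for these genes was how each molecule, and their combination, altered the mRNA of the class I pathway. The labels give one duration for every group, while the study's methods let the kinase inhibitor act alone before the second molecule was added, so the length of exposure to TCP was not settled here. Nothing in the labels says whether the libraries of a group came from separate cultures, so p-values measure the spread between these libraries, which may be technical. In bulk RNA, a change in the share of cells with a transcript and a change in its amount per cell cannot be told apart.

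MHC class I molecules show peptides from inside the cell to CD8 T cells and natural killer cells. The proteasome cuts proteins into peptides, the transporter TAP carries them into the endoplasmic reticulum, and the loading complex fits them into a heavy chain bound to beta-2-microglobulin. NLRC5 is the class I transactivator: it has no DNA-binding domain of its own and reaches class I promoters through proteins bound at a conserved module of short boxes. Interferons raise many genes of this pathway through transcription factors such as IRF1. AML cells usually carry class I molecules, and their loss is a known route of escape from T cells.

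The sequence just before the transcription start is shown for 7 of the 9 genes, because several of them moved together and because the class I module is defined by its letters. The promoter sequences come from RefSeq (GRCh38.p14), and each was placed on GRCh37, the build of the deposited data, by an exact single match. They are reference sequences, not read from MV4-11. Each line is 160 bases, 5′ to 3′, ending at the base before the start. Capitals mark an X2 core (TGACG) followed by a Y core (ATTGG) 15 to 25 bases further on, and an interferon response core (AANNGAAA), both searched on either strand.
HLA-B (chr6:31324957-31325116, minus strand): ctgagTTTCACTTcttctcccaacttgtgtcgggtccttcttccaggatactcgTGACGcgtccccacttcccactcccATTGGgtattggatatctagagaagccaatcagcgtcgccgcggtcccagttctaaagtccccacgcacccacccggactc
HLA-C (chr6:31239870-31240029, minus strand): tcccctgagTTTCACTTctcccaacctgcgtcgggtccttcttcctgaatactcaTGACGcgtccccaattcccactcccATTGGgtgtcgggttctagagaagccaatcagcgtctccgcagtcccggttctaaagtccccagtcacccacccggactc
B2M (chr15:45003555-45003714, plus strand): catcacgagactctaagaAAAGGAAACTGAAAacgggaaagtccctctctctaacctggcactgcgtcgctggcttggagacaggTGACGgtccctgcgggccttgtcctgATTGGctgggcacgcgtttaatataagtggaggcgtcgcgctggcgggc
TAPBP (chr6:33281856-33282015, minus strand): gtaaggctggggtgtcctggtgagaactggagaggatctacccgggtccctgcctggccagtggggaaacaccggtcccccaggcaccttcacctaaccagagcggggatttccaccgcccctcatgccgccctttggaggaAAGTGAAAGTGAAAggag
TAP2 (chr6:32806517-32806676, minus strand): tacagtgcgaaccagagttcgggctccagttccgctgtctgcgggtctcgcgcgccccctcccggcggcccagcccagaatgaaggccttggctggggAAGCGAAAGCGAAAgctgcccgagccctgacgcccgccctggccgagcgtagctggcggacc
TAP1 (chr6:32821482-32821641, minus strand): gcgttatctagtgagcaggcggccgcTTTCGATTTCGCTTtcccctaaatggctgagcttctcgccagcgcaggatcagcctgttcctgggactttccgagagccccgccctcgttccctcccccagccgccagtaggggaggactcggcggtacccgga
PSMB9 (chr6:32821809-32821968, plus strand): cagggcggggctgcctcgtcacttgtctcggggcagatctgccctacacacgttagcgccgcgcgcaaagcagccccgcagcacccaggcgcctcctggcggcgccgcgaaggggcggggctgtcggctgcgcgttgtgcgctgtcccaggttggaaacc

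The paired X2 and Y cores stood in HLA-B, HLA-C and B2M, with 20, 20 and 21 bases between them. In HLA-B, 76 bases separated the pair from the start. No such pair was found in the 250 bases scanned for TAP1, TAP2, TAPBP and PSMB9. Over all 35114 RefSeq promoter windows of this length, 143 (0.407%) held the pair, while the single cores were common, with TGACG in 21.2% and ATTGG in 32% of windows. The interferon response core was found in HLA-B, HLA-C, B2M, TAP1, TAP2 and TAPBP, with overlapping copies in all of these but HLA-B and HLA-C, and not in PSMB9, against 20.3% of all windows. TAP1 had a second, downstream start in RefSeq that is not shown. TAP1 and PSMB9 are read away from each other, and their RefSeq starts lay 487 bases apart on chromosome 6. The interferon response cores marked for TAP1 lie between these starts, outside the 250 bases scanned for PSMB9. A match in these letters is a description and shows no binding. NLRC5 lies on chromosome 16 (57023397 to 57117443, plus strand, GRCh37) and HLA-E on chromosome 6 (30457286 to 30461971, plus strand).

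Values are TPM as deposited, a measure of transcript abundance in which a gene's length is divided out and every library sums to the same total. Between 13320 and 13640 genes reached 1 TPM per library, and replicates correlated at 0.983 to 0.991 across genes. The 10 most abundant genes took 9.12 to 9.67% of the TPM without palbociclib and 13.96 to 15.77% with it, and the median tested gene fell by 0.16 on the log2 scale in Palbo against Ctrl and by 0.22 in Combo against Ctrl. Median-ratio scaling brought both medians to -0.01. The 6 AML markers were detected in every library, with a summed level of 785 to 905 TPM, though single markers moved: in Palbo against Ctrl, FLT3 fell by 1.52 (limma adjusted p = 0.00194), HOXA9 by 0.56 and MEIS1 by 0.53, while SPI1 rose by 0.91, PTPRC by 0.76 and CD33 by 0.36. The lymphoid markers CD3E and MS4A1 were at 0 in all 8. The 11 stromal markers summed to 22.6 to 56.3 TPM in 7 libraries and to 147.6 TPM in Palbo replicate 2, and the 3 of them not tested were below 2 TPM in every library. Of the 8 tested, 1 rose in Palbo against Ctrl at an adjusted p below 0.05, where 14.8% of all genes rose. With the replicate number as a block, 5 of these markers rose, with no share of all genes computed for that fit. Their part in the results was not tested, and the counts without that library are given below.

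Palbociclib raised the class I transactivator, the heavy chains and beta-2-microglobulin, with or without TCP, and lowered the immunoproteasome subunit PSMB9. TCP changed none of the 9 genes detectably. Fold changes come from limma, with its standard error (SE), after taking log2(TPM + 1), and adjusted p-values are those of limma with Benjamini-Hochberg correction over all 14151 genes. A gene was called a differentially expressed gene (DEG) where the log2 fold change reached 1 in either direction with an adjusted p below 0.01, and a wider call used an adjusted p below 0.05 alone.

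NLRC5 was measured at 20.7 and 21.9 TPM in Ctrl, 19.6 and 16.8 TPM in TCP, 45.4 and 43.3 TPM in Palbo, and 41.4 and 39.1 TPM in Combo. The 4 libraries with palbociclib stood well above the 4 without, with no overlap. Its level rose by a log2 fold change of 1.03 (SE 0.10, 95% interval 0.79 to 1.26) in Palbo against Ctrl, a 2.04-fold increase (limma adjusted p = 0.000398). Against TCP alone, Combo was higher by 1.11 (SE 0.10, adjusted p = 0.0002). These contrasts share no library, but same-numbered libraries deviate together across groups and both contrasts use one estimate of the spread, so the second is not an independent repeat.

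Among the heavy chains, HLA-B, a classical chain that presents peptides to T cells, was the most abundant, at 420 and 365 TPM in Ctrl, 397 and 356 TPM in TCP, 797 and 837 TPM in Palbo, and 757 and 772 TPM in Combo. HLA-C, also classical and a ligand of killer cell receptors, was at 121 and 104 TPM in Ctrl, 106 and 96.5 TPM in TCP, 226 and 241 TPM in Palbo, and 216 and 227 TPM in Combo. Both were clearly apart between libraries with and without palbociclib, and no library crossed over. HLA-B rose by 1.06 (SE 0.09, adjusted p = 0.000296) and HLA-C by 1.05 (SE 0.10, adjusted p = 0.000347) in Palbo against Ctrl. In Combo against TCP the log2 fold changes were 1.02 for HLA-B and 1.12 for HLA-C, with adjusted p-values of 0.000216 and 0.000179.

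HLA-E, a chain of low diversity that shows signal peptides of other class I chains to the NKG2A receptor, was at 70.5 and 53.3 TPM in Ctrl, 64.8 and 44.6 TPM in TCP, 118 and 121 TPM in Palbo, and 127 and 122 TPM in Combo. Replicates were further apart without palbociclib than with it, but the libraries with palbociclib were all higher. Its log2 fold change was 0.95 (SE 0.19, adjusted p = 0.00663) in Palbo against Ctrl and 1.20 (SE 0.19, adjusted p = 0.00213) in Combo against TCP. HLA genes differ between people and resemble each other, so short reads may be exchanged among them, and how the authors' counting treated such reads is not given in the sources used here.

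B2M encodes the invariant light chain that every class I heavy chain needs at the cell surface. It was by far the most abundant of the 9, at 4269 and 3495 TPM in Ctrl, 4402 and 3475 TPM in TCP, 6996 and 7076 TPM in Palbo, and 6690 and 6695 TPM in Combo. The groups with and without palbociclib did not overlap, and the replicates with palbociclib were nearly equal. B2M rose by 0.87 (SE 0.14, adjusted p = 0.00261) in Palbo against Ctrl and by 0.78 (SE 0.14, adjusted p = 0.00337) in Combo against TCP. Together the 9 genes took 0.403 to 0.503% of a library's TPM without palbociclib and 0.788 to 0.837% with it.

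TAPBP encodes tapasin, which bridges the heavy chain to the transporter in the loading complex. Its level was 21.8 and 20.3 TPM in Ctrl, 21.4 and 21.0 TPM in TCP, 30.7 and 35.4 TPM in Palbo, and 32.0 and 34.2 TPM in Combo. The libraries with palbociclib were higher without overlap, by a smaller step than the heavy chains. TAPBP rose by 0.62 in both contrasts (SE 0.10), with an adjusted p of 0.00254 in Palbo against Ctrl and 0.00208 in Combo against TCP.

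The transporter subunits did not follow tapasin. TAP2 was at 8.29 and 8.47 TPM in Ctrl, 8.61 and 7.64 TPM in TCP, 5.59 and 5.31 TPM in Palbo, and 5.95 and 5.53 TPM in Combo, so that all libraries with palbociclib were below all others. TAP2 fell by 0.54 on the log2 scale in Palbo against Ctrl (SE 0.11, adjusted p = 0.00779) and by 0.43 in Combo against TCP (SE 0.11, adjusted p = 0.0165). With median-ratio scaling the latter was -0.27 (adjusted p = 0.0617), which no longer passed the test. TAP1 was at 8.80 and 6.50 TPM in Ctrl, 7.45 and 5.60 TPM in TCP, 5.52 and 5.23 TPM in Palbo, and 5.79 and 5.41 TPM in Combo, and TCP replicate 2 lay within the range of the libraries with palbociclib. Its log2 fold change of -0.43 in Palbo against Ctrl (SE 0.18, adjusted p = 0.0874) and of -0.38 in Combo against Ctrl (adjusted p = 0.111) did not pass, but both passed with the replicate number as a block, at adjusted p-values of 0.0274 and 0.0376. Combo against TCP gave -0.18 for TAP1 (adjusted p = 0.433; 0.261 with the block).

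PSMB9 encodes LMP2, the immunoproteasome subunit that takes the place of PSMB6 and favours peptides suited to class I grooves. It was at 6.72 and 5.78 TPM in Ctrl, 6.31 and 5.95 TPM in TCP, 1.79 and 1.91 TPM in Palbo, and 1.95 and 1.93 TPM in Combo. The highest level with palbociclib was far below the lowest without it. PSMB9 fell by 1.34 on the log2 scale in Palbo against Ctrl (SE 0.13, 95% interval -1.65 to -1.03, adjusted p = 0.000433) and by 1.28 in Combo against TCP (SE 0.13, adjusted p = 0.000355). Because 1 TPM is added before the log, these values understate the change of so low a gene. The annotated span of PSMB9 on chromosome 6 (32811913 to 32827628, plus strand, GRCh37) covers that of TAP1 (32812986 to 32821593, minus strand). The library kit marks the strand, but the strand setting of the counting is not given in the sources used here, so reads of the pair may not be fully told apart.

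**Figure D1:**
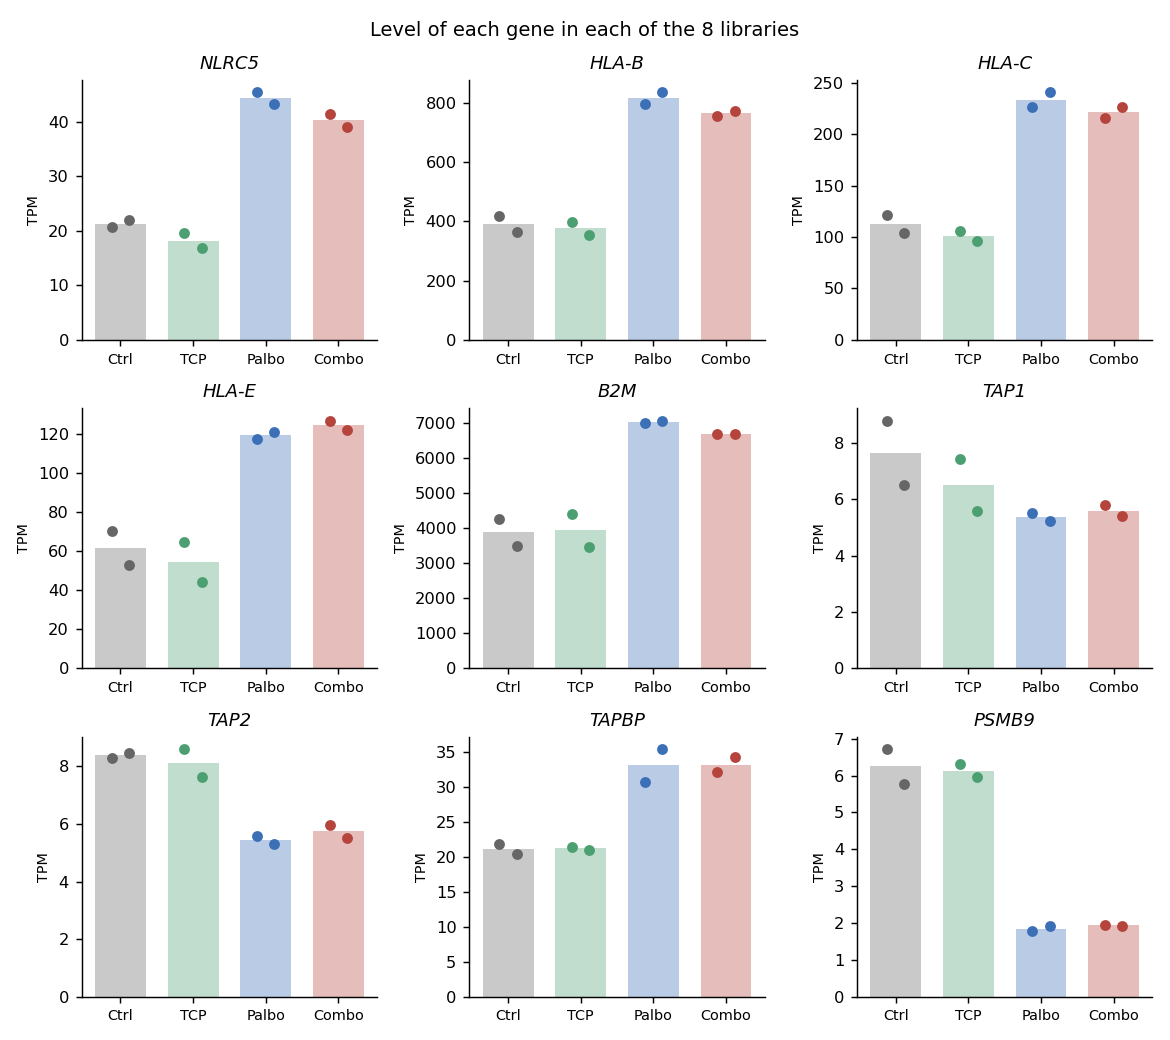
Level of each of the 9 genes in TPM (vertical axis, from 0, own scale per panel) in Ctrl, TCP, Palbo and Combo; points are single libraries and bars the mean of 2. NLRC5, HLA-B, HLA-C, HLA-E, B2M and TAPBP are higher and TAP2 and PSMB9 lower in the 4 libraries with palbociclib, without overlap, while TAP1 overlaps.

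In Palbo against Ctrl, 4 of the 9 genes were DEG, NLRC5, HLA-B and HLA-C higher and PSMB9 lower, where 9.1% of all tested genes were DEG (4.54% higher, 4.56% lower). By the wider call, 6 rose and 2 fell, against 14.8% and 30.2% of all genes, and with the block 6 rose and 3 fell. As deposited, 6 of 9 thus rose where 14.8% of all genes did, and the share that fell was near the background. The genes were chosen with earlier results of these data known, so the difference in shares is a description only. The direction of change over all genes also depended on scaling, as given below. The median log2 fold change of the 9 was 0.87, against -0.16 for all tested genes. Without Palbo replicate 2, the library with the highest stromal markers, 7 genes passed the wider call and TAP2 missed it (adjusted p = 0.0511). Leaving out Ctrl replicate 2 lowered the number of DEG among the 9 from 4 to 2.

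Combo against TCP gave 5 DEG, NLRC5, HLA-B, HLA-C and HLA-E higher and PSMB9 lower, against 12.2% of all genes (5.46% higher, 6.7% lower), and 6 higher and 2 lower by the wider call, against 16.5% and 33.8%. Leaving out TCP replicate 2 lowered the DEG among the 9 to 3. In Combo against Ctrl, HLA-E at 1.01 and PSMB9 at -1.30 were DEG, where 13.7% of all genes were (5.87% higher, 7.82% lower). HLA-B and HLA-C, both at 0.97, and NLRC5, at 0.89, fell just short of the fold required. With median-ratio scaling NLRC5 was at 1.11 in this contrast. The paper, with its own fit, lists NLRC5 among genes raised by the combination in both mRNA and chromatin accessibility. The wider call again took 6 higher and 2 lower in Combo against Ctrl, against 15.9% and 37.6% of all genes. The share of DEG that were higher over all genes depended on scaling, 49.9% as deposited and 66.4% with median-ratio scaling in Palbo, and 42.8% and 61.9% in Combo, both against Ctrl. For the 9 genes, no direction flipped between these scalings in the 3 contrasts with palbociclib, and median-ratio scaling made 6 of them DEG in Combo against Ctrl. The libraries with palbociclib were all higher than the others for 6 of the 9 genes and all lower for 2, against 17.5% and 36.5% of all tested genes.

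**Figure D2:**
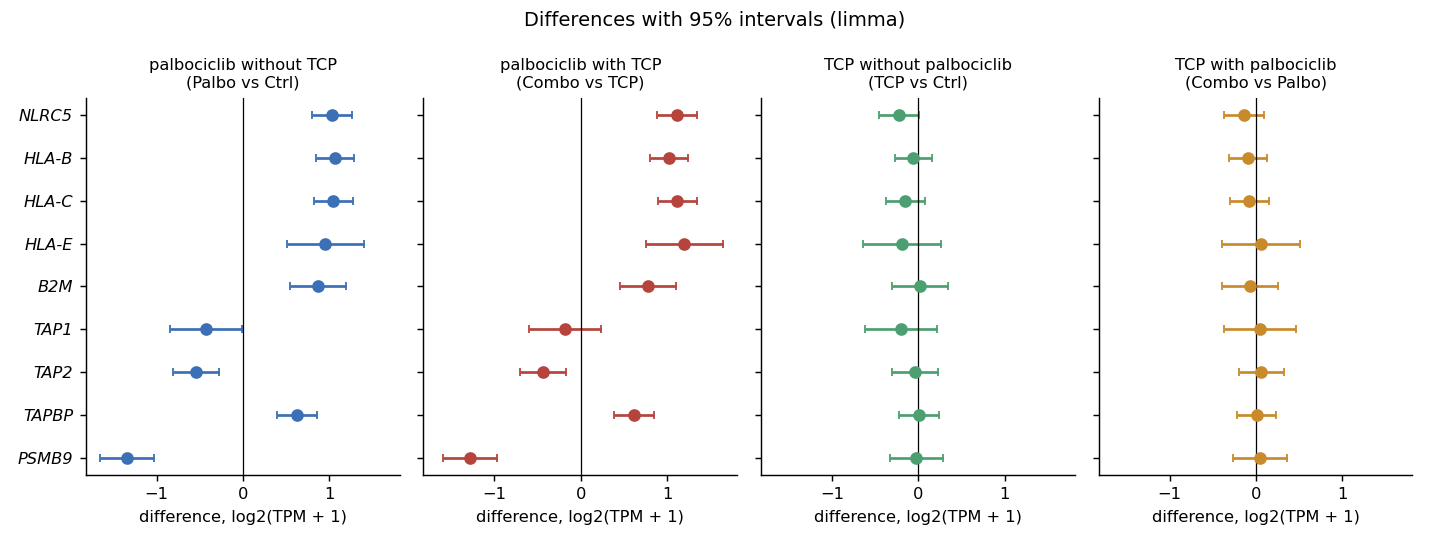
Log2 fold change of each of the 9 genes on the log2(TPM + 1) scale (horizontal axis) with its 95% interval from limma, for palbociclib without TCP, palbociclib with TCP, TCP without palbociclib and TCP with palbociclib. The intervals of NLRC5, the HLA genes, B2M and TAPBP lie above 0 and those of TAP2 and PSMB9 below 0 in both contrasts of palbociclib, and no interval excludes 0 in either contrast of TCP.

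TCP alone called none of the 9 genes against Ctrl, by either rule, where 0.0565% of all genes were DEG and 0.431% passed the wider call. None of the 9 reached an unadjusted p below 0.05 either, which 8.77% of all genes did. Libraries with TCP did not stand apart from those without it for any of the 9, against 3.31% of all genes. NLRC5 had the widest difference, -0.22 (95% interval -0.45 to 0.01, limma adjusted p = 0.599). The intervals of HLA-B (-0.28 to 0.16) and HLA-C (-0.38 to 0.08) leave no room for a rise of the size seen with palbociclib. For HLA-E the interval was wider, -0.63 to 0.26, and for B2M it was -0.31 to 0.34. The direction of TAP2 and PSMB9 in this contrast depended on scaling, with values of -0.04 and -0.02 as deposited.

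When TCP was added to palbociclib, again none of the 9 genes passed (Combo against Palbo, 0.502% of all genes DEG, 3.49% by the wider call), and none had an unadjusted p below 0.05, against 17.5% of all genes. The differences ran from -0.14 for NLRC5 (95% interval -0.37 to 0.10, adjusted p = 0.535) to 0.06 for TAP2 (95% interval -0.20 to 0.33). The test of whether the effect of palbociclib differed with and without TCP called none of the 9 genes and 0 of 14151 by limma, of which 904 (6.39%), none of the 9 among them, had an unadjusted p below 0.05. Its largest values among the 9 were 0.25 for TAP1 (95% interval -0.34 to 0.84) and 0.25 for HLA-E (95% interval -0.39 to 0.88), so a moderate difference in these genes could have been missed. For NLRC5 the interval was -0.24 to 0.41.

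The levels spanned a wide range, and TPM allows them to be ordered. In every group B2M was highest, 8.61 to 10.5 times HLA-B, followed by HLA-B, HLA-C and HLA-E, with no overlap between these neighbours. In Ctrl, NLRC5 and TAPBP followed at like levels and overlapped, and then TAP2, TAP1 and PSMB9, where TAP2 overlapped TAP1 and TAP1 overlapped PSMB9. In TCP, TAPBP stood above NLRC5 without overlap, at 1.17 times its level, TAP2 stood above TAP1 at 1.25 times, and TAP1 overlapped PSMB9. In Palbo and Combo, NLRC5 stood above TAPBP without overlap, TAP2 and TAP1 overlapped, and PSMB9 stood apart at the bottom, with TAP1 at 2.91 and 2.89 times its level. The ratio of B2M to the sum of HLA-B, HLA-C and HLA-E was 6.98 and 6.69 in Ctrl, 7.74 and 6.997 in TCP, 6.13 and 5.90 in Palbo, and 6.08 and 5.97 in Combo. It was thus lower in each library with palbociclib, where the heavy chains had risen slightly more than their light chain.

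The proteasome subunits were set against the constitutive subunits they replace. PSMB9 stood at 0.0600 and 0.0538 of PSMB6 in Ctrl, 0.0577 and 0.0438 in TCP, 0.0215 and 0.0292 in Palbo, and 0.0237 and 0.0271 in Combo. The ratio was lower in every library with palbociclib. PSMB8 stood at 0.196 and 0.167 of PSMB5 in Ctrl, 0.204 and 0.1503 in TCP, 0.149 and 0.128 in Palbo, and 0.132 and 0.125 in Combo, which left TCP replicate 2 only just above Palbo replicate 1. PSMB10 stood at 1.47 to 1.62 of PSMB7 without palbociclib and at 1.48 to 1.76 with it, and these ranges overlapped. PSMB9 was scarce beside PSMB6 in the Ctrl libraries too, and of the 3 pairs its ratio moved furthest.

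**Figure D3:**
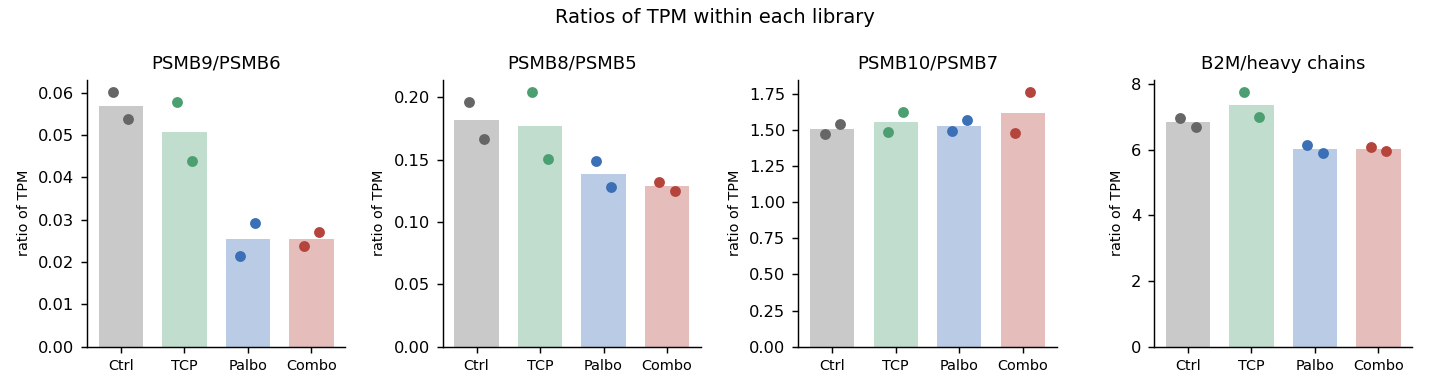
Ratio of TPM within each library (vertical axis, from 0) for PSMB9 to PSMB6, PSMB8 to PSMB5, PSMB10 to PSMB7, and B2M to the sum of HLA-B, HLA-C and HLA-E; points are libraries, bars the mean of 2. The PSMB9 ratio lies between 0.0215 and 0.0292 with palbociclib and between 0.0438 and 0.0600 without, while the PSMB10 ratio overlaps.

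Other genes of the pathway were examined by lists. Of 6 further class I and class I-like chains, 5 were tested and all 5 rose in Palbo against Ctrl by the wider call, which 14.8% of all genes did. FCGRT, the heavy chain of the neonatal Fc receptor that also pairs with B2M, rose by 2.08 (adjusted p = 0.000118), and CD1D, which presents lipids, by 1.25 (adjusted p = 0.000342). MR1, which presents vitamin metabolites, rose by 0.93, HLA-G by 0.88 and HLA-F by 0.50, the last just past the threshold (adjusted p = 0.0499). HFE stayed below the filter on low values. The median of the 5 was 0.93, and under TCP alone none of them passed.

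The loading list was mixed, with 2 of 6 higher and 1 lower in Palbo against Ctrl, against 14.8% and 30.2% of all genes. With the replicate block 2 were higher and 3 lower, and no such share of all genes was computed for that fit. CALR, the chaperone calreticulin, rose by 0.48 (adjusted p = 0.0213) and TAPBPL, the tapasin-related peptide editor, by 0.39 (adjusted p = 0.0414). ERAP2, an aminopeptidase that trims peptides in the endoplasmic reticulum, was at 23.0 and 22.5 TPM in Ctrl and 6.22 and 4.53 TPM in Palbo, and fell by 1.91 (adjusted p = 0.000803). Its partner ERAP1, at -0.33 (adjusted p = 0.0517), and the chaperone CANX, at -0.20 (adjusted p = 0.129), did not pass, but did with the block (adjusted p = 0.0157 and 0.0213). PDIA3 was at 0.03 (adjusted p = 0.768). The median of the list was -0.09, against -0.16 for all genes.

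All 4 other genes of the immunoproteasome and its activator fell in Palbo against Ctrl by the wider call as deposited, where 30.2% of all genes fell, and 3 of 4 did so with median-ratio scaling. PSMB8 fell by 0.57 (adjusted p = 0.00298), PSME1 by 0.52 (adjusted p = 0.00102), PSME2 by 0.58 (adjusted p = 0.00491) and PSMB10 by 0.35 (adjusted p = 0.0126). Of the constitutive subunits, PSMB6 fell by 0.57 and PSMB7 by 0.38, while PSMB5 was at -0.21 (adjusted p = 0.185), and with median-ratio scaling none of the 3 passed. PSMB9, at -1.34, thus had a larger change than any of these 7 genes.

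Of 12 genes for the proteins of the X and Y boxes and other regulators of class I and class II genes, 1 rose and 5 fell in Palbo against Ctrl, with a median of -0.34, shares near the 14.8% and 30.2% of all genes. With median-ratio scaling 2 rose and 4 fell, and with the replicate block 1 rose and 7 fell, CREB1 (adjusted p = 0.0433) and ATF1 (adjusted p = 0.00602) being added. No such share of all genes was computed for either of these fits. IRF1, an interferon response factor that acts on class I, TAP1 and PSMB9 promoters, was at 58.6 and 55.4 TPM in Ctrl, 58.1 and 56.2 TPM in TCP, 29.4 and 26.6 TPM in Palbo, and 29.9 and 26.2 TPM in Combo. It fell by 1.003 in Palbo against Ctrl (adjusted p = 0.000398) and by 1.005 in Combo against TCP (adjusted p = 0.000263), without overlap. RFXAP, a subunit of the RFX complex at the X1 box, fell by 1.28 (adjusted p = 0.00614), its partner RFXANK rose by 0.24 (adjusted p = 0.0383), and RFX5 was at -0.05 (adjusted p = 0.621). NFYA and NFYB, which bind the Y box, fell by 0.44 and 0.50. CIITA, the class II transactivator and nearest relative of NLRC5 in function, fell by 0.78 in Palbo against Ctrl (adjusted p = 0.0198). In TCP against Ctrl it was at 0.70 and did not pass (adjusted p = 0.338). In Combo against TCP it was at -0.35 (adjusted p = 0.192) and in Combo against Ctrl at 0.34 (adjusted p = 0.2), neither of which passed, and it rose by 1.12 in Combo against Palbo (adjusted p = 0.0365).

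Of 13 interferon-stimulated genes, 1 rose and 5 fell in Palbo against Ctrl, shares near the 14.8% and 30.2% of all genes, with a median of -1.42. With the replicate block 6 fell, GBP4 being added (adjusted p = 0.0199). In Combo against TCP, 1 rose and 1 fell, against 16.5% and 33.8% of all genes, with a median of -0.31. There, 2 rose and 2 fell with the block, for which no such share of all genes was computed. CXCL10, a chemokine induced by interferon, fell by 3.01 in Palbo against Ctrl (adjusted p = 0.00218) and by 2.18 in Combo against TCP (adjusted p = 0.00672). GBP2 rose by 1.41 and 1.45 in the same contrasts (adjusted p = 0.0369 and 0.0302). IFIT1, IFIT2, IFIT3 and OAS1 fell in Palbo against Ctrl and did not pass in Combo against TCP, except IFIT2 with the block (adjusted p = 0.0402). These genes were uneven between replicates: ISG15 was at 189 and 69.7 TPM in Ctrl, 146 and 39.8 TPM in TCP, 31.7 and 43.3 TPM in Palbo, and 49.5 and 58.7 TPM in Combo. Replicate 1 was far above replicate 2 without palbociclib, and not with it. Of the 9 genes, 7 were also higher in replicate 1 than in replicate 2 of both Ctrl and TCP, all but NLRC5 and TAP2. On the log2 scale replicate 2 minus replicate 1 ran, in Ctrl and TCP, from -0.40 and -0.53 for HLA-E to -0.10 and -0.02 for TAPBP, with -0.20 and -0.16 for HLA-B. The part of this difference in their results was not tested.

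MHC class II genes, which present outside antigens to CD4 T cells, had another pattern. Of 9, 7 were tested, and 4 rose in TCP against Ctrl, 2 in Palbo against Ctrl, 6 in Combo against Palbo and 7 in Combo against Ctrl. By the same wider call, 14.8% of all genes rose in Palbo against Ctrl and 15.9% in Combo against Ctrl. In either direction, 0.431% of all genes passed in TCP against Ctrl and 3.49% in Combo against Palbo. With the replicate block 5 rose in TCP against Ctrl, HLA-DQB1 being added (adjusted p = 0.0419), and 7 in Combo against Palbo, HLA-DMA being added (adjusted p = 0.0210). No such share of all genes was computed for the block. CD74, the invariant chain, was at 348 and 314 TPM in Ctrl, 648 and 624 TPM in TCP, 487 and 464 TPM in Palbo, and 877 and 796 TPM in Combo. Every library with TCP was above every library without it. CD74 rose by 0.94 with TCP (adjusted p = 0.00956) and by 0.53 with palbociclib (adjusted p = 0.00262). HLA-DRA rose by 1.34 with TCP (adjusted p = 0.0264) and was at 0.11 in Palbo against Ctrl (adjusted p = 0.595).

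Genes most like NLRC5 and B2M were sought among 11107 genes with a mean of at least 5 TPM, by Pearson's r over the 8 libraries. For NLRC5 these were ZNF561 (0.998), CSF3R (0.996), NCKAP1L (0.995), RANBP10 (0.994) and ANXA1 (0.994). For B2M they were ASAH1 (0.996), SERPINF1 (0.995), LOC646471 (0.992), NINJ1 (0.992) and FBXO6 (0.992). Because the libraries fall into 2 clusters by palbociclib, these values mostly restate that difference and are descriptions only.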

How the data were processed

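RNA-seq libraries of MV4-11 cells were made by the authors with a stranded poly(A) kit, mapped to hg19 (GRCh37) with subread-align and counted per gene with featureCounts 1.6.4. SAMtools 1.9 and DESeq2 1.26.0 are also listed in the submitters' processing notes. The deposited values are TPM, converted by the authors from counts. Gene lengths, annotation and strand setting are not given in the sources used here, and the depth is unknown. TPM are not counts, so log2(TPM + 1) was fitted here in limma 3.58.1 (R 4.3.3) with group means over all 8 libraries and a mean-variance trend, on genes that reached 1 TPM in 2 or more libraries, with Benjamini-Hochberg adjustment. The fit was tested on simulated data with each library drawn independently, so that test says nothing of the pairing described below. The residual degrees of freedom are 4, and an exact permutation test of 2 against 2 libraries cannot go below p = 0.333. Every member of the set was named, and lists were described by counts and medians. Some genes of the pathway are not reported here. The genes, lists and tests were chosen with earlier results of these data known. Same-numbered libraries deviated together in all 6 pairs of groups (correlations of 0.169 to 0.491), so the numbers were taken as pairing the libraries. The main fit leaves this pairing out, as do its standard errors, its adjusted p-values and the intervals in the text and figures. A second fit held the replicate number as a block. Its value or count is given where it changes a reported call. The shares of all genes by the wider call come from the main fit, and none was computed for the block or for other scalings. Alternatives were another pseudocount, 2 other filters, 2 scalings, the replicate block, the compared groups alone, no trend, and each library left out.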

Additional observations from a re-analysis of the deposited data

How the results depend on the processing

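Over the 9 genes, 6 contrasts and all alternatives, 808 values kept their direction and their side of an adjusted p of 0.05, 8 lost the call, 2 gained it and 31 changed direction. Rises of NLRC5, HLA-B, HLA-C, HLA-E, B2M and TAPBP and the fall of PSMB9 passed under every alternative run in all 3 contrasts with palbociclib. The number of the 9 genes called by this rule stayed between 7 and 9. The fold threshold lies at the genes' own values, so counts of DEG moved more: of the 9 genes, Palbo against Ctrl gave 4 (2 to 4 with one library left out), Combo against TCP 5 (3 to 5), and Combo against Ctrl 2 (1 to 4), the last also 1 without a filter, 1 with a mean of at least 5 TPM, 4 with quantile normalization and 6 with median-ratio scaling. TAP2 missed the threshold with median-ratio scaling in Combo against Ctrl (-0.28, adjusted p = 0.0588) and in Combo against TCP, with the compared groups alone in Combo against TCP (adjusted p = 0.0625), and without Palbo replicate 2, Ctrl replicate 2, Combo replicate 2 or TCP replicate 1. With the replicate block TAP1 gained its calls against Ctrl, and no other call of the 9 genes changed. An arm left with 1 library was assumed to vary like the other groups.

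Over all genes, TCP against Ctrl gave 8 DEG, 3 with quantile normalization, 3 with median-ratio scaling, 20 with the replicate block, 0 with the compared groups alone and 0 to 1 with one library left out. Combo against Palbo gave 71, 42 with a pseudocount of 0.1, 38 without a filter, 114 with the replicate block, 38 with the compared groups alone and 1 to 52 with one library left out. Palbo against Ctrl gave 1288 (787 to 1341 with one library left out, the lowest without Palbo replicate 2). The test of the difference between effects gave 0, and 7 without a filter; it could not be fitted on the compared groups alone. The cause was not tested.

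Direction changed only for differences that passed no test. In TCP against Ctrl, TAP2 became 0.0068 with quantile normalization, and PSMB9 0.0125 with it and 0.017 with median-ratio scaling. With one library left out the ranges there were -0.1582 to 0.0431 for HLA-B, -0.4517 to 0.0786 for HLA-E, -0.1527 to 0.1884 for B2M, -0.1195 to 0.0338 for TAP2, -0.0408 to 0.0558 for TAPBP and -0.1155 to 0.0717 for PSMB9. TAPBP ranged from -0.0918 to 0.1048 in Combo against Palbo, and TAP1 from -0.3567 to 0.0008 in Combo against TCP. For the difference between effects, TAPBP became 0.008 with quantile normalization and 0.0198 with median-ratio scaling, and the ranges were -0.0199 to 0.189 for NLRC5, -0.1378 to 0.0635 for HLA-B, -0.0349 to 0.1822 for HLA-C, -0.0189 to 0.5114 for HLA-E, -0.2605 to 0.0806 for B2M, -0.0993 to 0.0973 for TAPBP and -0.0265 to 0.1607 for PSMB9.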

Other observations

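Of 5 tested ligands of NKG2D, an activating receptor of natural killer and T cells, 2 fell in Palbo against Ctrl and none rose. The share that fell was near the 30.2% of all tested genes. ULBP1 was at 16.3 and 8.77 TPM in Ctrl, 15.7 and 5.05 TPM in TCP, 0.458 and 0.194 TPM in Palbo, and 0.346 and 0.271 TPM in Combo. Without palbociclib its replicate 1 was well above replicate 2. ULBP1 fell by 3.30 on the log2 scale (limma adjusted p = 0.00182), and ULBP3 fell by 1.99 (adjusted p = 0.000646). MICA, MICB and ULBP2 were at -0.07, -0.25 and -0.61 and did not pass.

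Among 10 interferon receptors and their signalling partners, 3 rose in Palbo against Ctrl and none fell, where 14.8% of all genes rose. With median-ratio scaling 5 rose, and no such share of all genes was computed for it. That scaling moved the median of all tested genes up, from -0.16 to -0.01. IFNGR1 rose by 0.53 (adjusted p = 0.00195), IFNAR1 by 0.63 (adjusted p = 0.00241) and IFNAR2 by 0.66 (adjusted p = 0.000587). IFNAR2 was at 51.2 and 55.5 TPM in Ctrl and 84.8 and 85.5 TPM in Palbo. The receptor chain IFNGR2, at 0.19 (adjusted p = 0.14), and the kinase JAK1, at 0.11 (adjusted p = 0.393), passed with median-ratio scaling (adjusted p = 0.0157 and 0.0445), and TYK2, at 0.03, did not (adjusted p = 0.0576).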
